A study of Mus musculus with 9 samples.

Results

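The 9 genes described here encode enzymes that take amino acids apart in the liver: Agxt, Sds, Tat, Hpd, Hgd, Fah, Hal, Uroc1 and Tdo2. They were chosen by gene symbol, with earlier results of these data known. All 9 were found among the 55253 symbols of the expression table and passed the filter on low values described next. RNA from whole liver of 9 male C57Bl/6J mice was sequenced from the 3′ ends of messenger RNAs, so that each transcript gives reads in proportion to its copies and not to its length. Of these mice, 5 (WD+alcohol 1 to 5) had received a Western diet, a fatty and sugary feed used to bring on fatty liver, and drank sweetened water holding 10% alcohol. They started when 10 weeks old and stayed on it for 23 weeks. The other 4 (control 1 to 4) had received chow and tap water, also for 23 weeks by their titles, and their age is not given. Diet, alcohol and sweetening came together, so that their shares cannot be told apart, and the alcohol intake of a mouse is not given. Levels are in CPM, read counts scaled to a common library total and then adjusted between libraries by TMM, a method that evens out differences in RNA composition. The 14759 genes whose mean reached 1 CPM were tested on the log2(CPM + 1) scale with limma-trend, and a gene was called at an adjusted p under 0.05 over all of them. On that scale a fold change of a low gene is understated.

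The liver is the main site of amino acid breakdown. Amino groups are passed on by aminotransferases or released as ammonia for the urea cycle, and the carbon skeletons feed gluconeogenesis, ketone bodies or the citric acid cycle. Tyrosine is taken apart in a chain of steps that opens with Tat and runs through Hpd and Hgd to Fah. Histidine is opened by Hal and then Uroc1, tryptophan by Tdo2, and serine and threonine are deaminated by Sds. Agxt moves the amino group of alanine onto glyoxylate, a reactive by-product of glycine, hydroxyproline and glycolate metabolism that otherwise becomes oxalate. Inherited loss of FAH, HGD, TAT, HAL or AGXT causes metabolic disease in people. Tat, Sds and Tdo2 are classic targets of glucocorticoids, and Tat and Sds also of glucagon, and their transcripts change with feeding and time of day.

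Reads in genes numbered from 3635860 to 6643645 per library, and each of the 9 enzymes had between 112 and 7434 reads in every library. The hepatocyte transcript Alb, albumin, lay between 14342 and 23414 CPM in the WD+alcohol libraries and between 26685 and 42089 CPM in controls. Col1a1, a collagen chain made by fibroblasts and activated stellate cells, lay between 1859 and 2217 CPM in all 9 libraries. That is high for liver RNA, and RNA of another tissue in all libraries was not tested, so the levels given here may not be those of liver tissue alone. The labels do not give the time of killing or the feeding state.

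Of the 9 enzymes 1 fell, Agxt, and 0 rose. Of all tested genes 2.29% were called, 0.678% lower and 1.61% higher. Called members numbered 1 also with edgeR and with DESeq2 on recovered reads, which called 2.13% and 3.69% of all tested genes. The other 8 were not called, with adjusted p from 0.2995 for Hal to 0.983 for Sds (limma-trend). Their log2 fold changes were uneven. Those of Tat (-0.93) and Hal (-0.62) were the furthest from 0 with wide intervals, and Sds, Hpd, Hgd, Fah, Uroc1 and Tdo2 all lay between -0.1 and 0. At an unadjusted p under 0.05 stood 3 members (Agxt, Tat and Hal), against 12.2% of all tested genes. All 9 log2 fold changes were below 0, against 50.1% of tested genes. Those of Sds, Hpd, Hgd, Fah, Uroc1 and Tdo2 turned positive in 1 to 6 of 21 alternative analyses. With all libraries rescaled to one total, Sds, Fah and Uroc1 stood at 0.020, 0.0037 and 0.0028. The 9 enzymes share the scaling and cell makeup of their libraries, so they are not 9 separate results. The median over the 9 was -0.07, beside -0.0008 over all tested genes. The plot of the 9 enzymes by library shows that only for Agxt do the groups stand clear of each other.

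**Figure D1:**
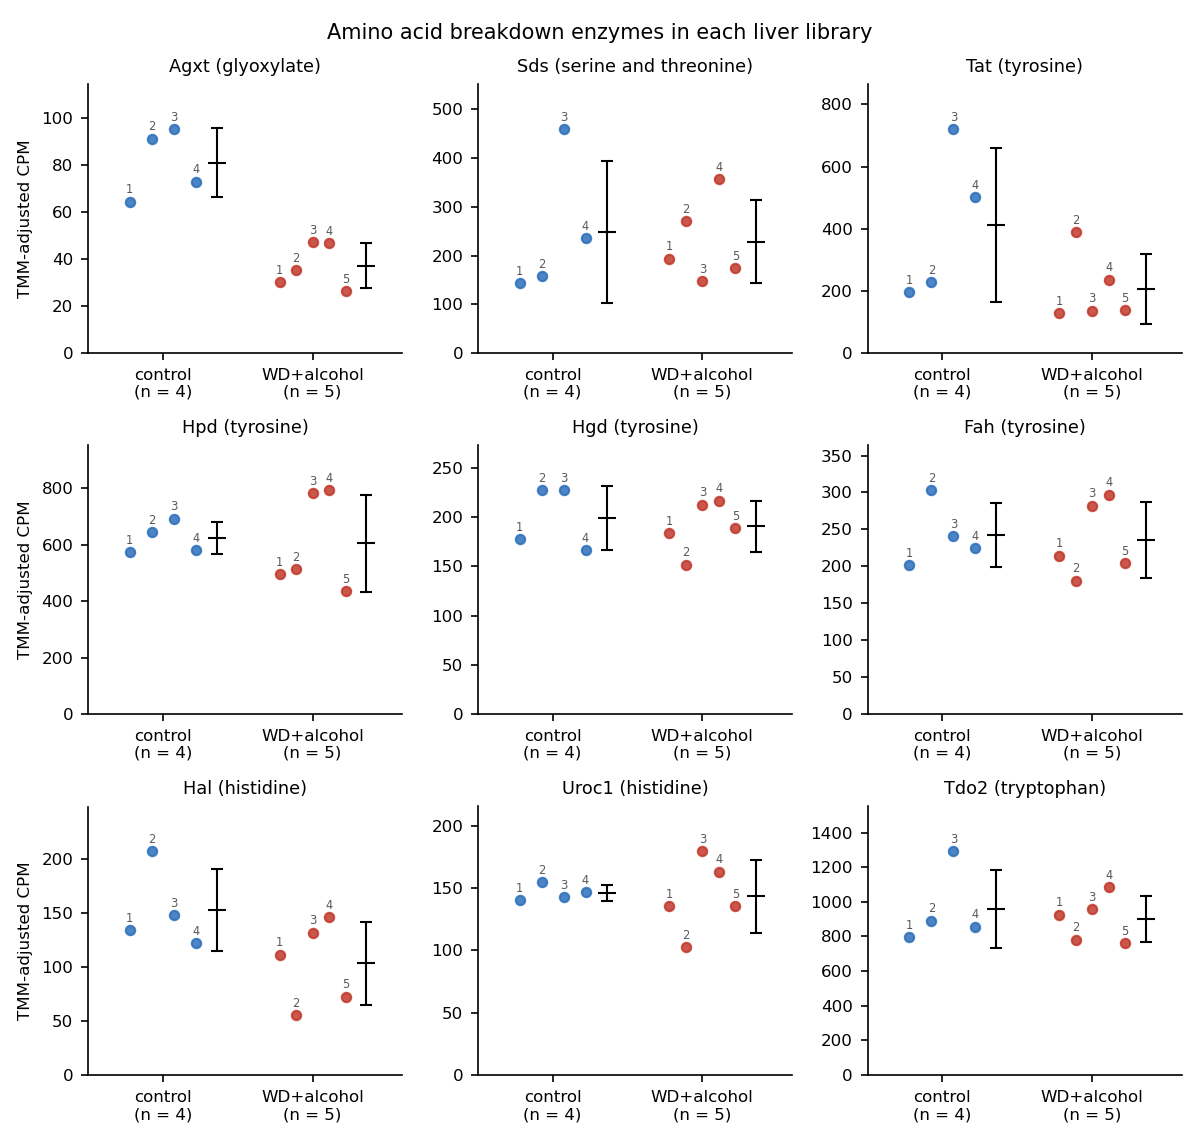
Level of each of the 9 enzymes (vertical axis, TMM-adjusted CPM, from 0) in the 4 control (blue) and 5 WD+alcohol (red) libraries; the digit above a point is the library's number, and the bar beside the points is the mean with its SD. Agxt runs from 26.4 to 47.3 CPM with WD+alcohol and from 64.4 to 95.2 CPM in controls, and the groups overlap for the other 8 genes.

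Agxt, alanine-glyoxylate aminotransferase, was read at 30.2, 35.3, 47.3, 46.7 and 26.4 CPM in WD+alcohol 1 to 5. In control 1 to 4 it was read at 64.4, 91.2, 95.2 and 72.9 CPM. Every WD+alcohol library was below every control, and WD+alcohol 5 and 1 were the lowest. The means were 37.2 ± 9.49 CPM (SD, n = 5) and 80.9 ± 14.7 CPM (SD, n = 4). The log2 fold change was -1.12 ± 0.17 (SE; 95% interval -1.49 to -0.75), so that the WD+alcohol level was between 0.356 and 0.595 of the control level by that interval (limma-trend adjusted p = 0.00299). An exact permutation test over the 126 ways to split the libraries, two-sided, gave p = 0.0159, the smallest it can give. Agxt was called lower in all 21 alternative analyses, among them edgeR and DESeq2 on recovered reads, with adjusted p from 2.74e-07 to 0.0138. Groups did not overlap for 1 of the 9 enzymes, against 5.34% of all tested genes.

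The 250 bases before the Agxt start site and, for contrast, those before the start site of Tat, the enzyme whose level spread most between mice, are shown with letter matches in capitals. The sequences are those of RefSeq on build GRCm38.p6, both on the plus strand, at chr1:93134990-93135239 for Agxt and chr8:109990186-109990435 for Tat. The reads were aligned to build GRCm39, so these coordinates go with the sequences and not with the counts.
Agxt: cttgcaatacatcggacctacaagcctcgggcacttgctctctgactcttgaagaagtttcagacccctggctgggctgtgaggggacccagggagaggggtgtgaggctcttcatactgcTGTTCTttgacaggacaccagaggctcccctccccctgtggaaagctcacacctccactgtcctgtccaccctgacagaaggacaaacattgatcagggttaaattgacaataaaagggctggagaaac
Tat: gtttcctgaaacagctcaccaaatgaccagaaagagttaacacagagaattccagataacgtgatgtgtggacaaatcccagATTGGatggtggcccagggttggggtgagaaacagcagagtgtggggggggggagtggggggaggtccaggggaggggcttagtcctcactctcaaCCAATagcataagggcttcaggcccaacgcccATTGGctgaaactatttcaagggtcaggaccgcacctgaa
Capitals mark matches, on either strand, to any of 6 words: AGAACA (a glucocorticoid receptor half-site), TGACG (a CRE half-site), GTAAACA (a forkhead site), CAAAGTCCA (an HNF4 site), CCAAT (the box of that name) and the TATA box word TATAAA. No 2 of these matches overlapped in either window. AGAACA was found, on the minus strand, 129 to 124 bases before the start of Agxt, and in 16.1% of 32851 promoter windows of the same length. It was found in 1 of the 8 enzymes that have a window in the table, where Sds has none. CCAAT was found 3 times before Tat, in 5 of the 8 enzymes and in 33.85% of all windows. The CRE, forkhead and HNF4 words were found in 0 of the 8, and in 17.8%, 3.17% and 0.384% of all windows. The TATA box word was found in 3 of the 8, and in 12.4% of all windows. A match describes letters only.

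Marker transcripts of other cell types differed between the same groups. All 10 macrophage markers rose, their summed level being 647 to 1047 CPM with WD+alcohol and 214 to 352 CPM in controls, and none was at 0 in all libraries. Of 11 hepatocyte markers 2 fell (Alb and Apoa1) and 1 rose (Hpx), their summed level being 47343 to 60481 CPM against 57619 to 82767 CPM. In bulk RNA, fewer cells of a type and less RNA per cell cannot be told apart. The part of these markers in the fall of Agxt was not tested. Ratios of Agxt to the other enzymes within a library, taken on log2(CPM + 1), depend on scaling between libraries only through the added 1. They were chosen after the fall of Agxt was seen.

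The log2 ratio of Agxt to Hpd was -3.98 ± 0.09 (SD, n = 5) with WD+alcohol and -2.94 ± 0.15 (SD, n = 4) in controls, a difference of -1.04. Against Hgd the difference was -1.06, against Fah -1.07, against Uroc1 -1.07 and against Tdo2 -1.05. For each of these 5 the groups did not overlap, and the exact permutation test gave p = 0.0159, or 0.0238 adjusted over 15 such ratios. Since the log2 fold changes of these 5 enzymes lay between -0.1 and 0, these differences restate the fall of Agxt on a scale within the library and are no further evidence of it. Against Sds the difference was -1.09 (exact permutation adjusted p = 0.0595), against Hal -0.50 (0.1099) and against Tat -0.19 (0.667), and none of these passed the threshold. The ratios of Agxt to Tat had an SD of 0.70 with WD+alcohol and 0.81 in controls.

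**Figure D2:**
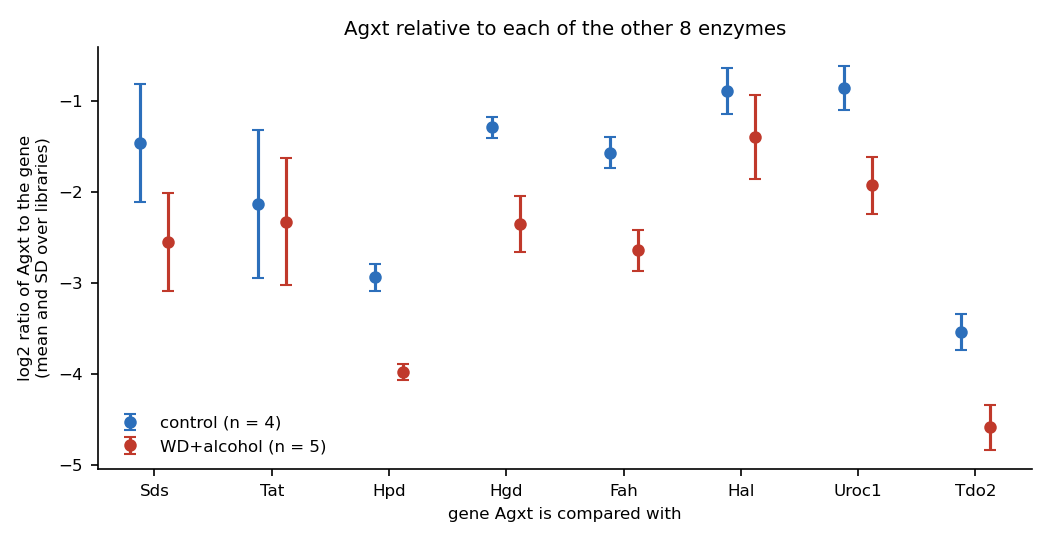
Log2 ratio of Agxt to each of the other 8 enzymes within a library (vertical axis), as mean and SD over the 4 control (blue) and 5 WD+alcohol (red) libraries. For Hpd, Hgd, Fah, Uroc1 and Tdo2 the red points lie about 1 unit below the blue, and for Tat and Sds the SD bars are wide.

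Agxt is on a list of 8 genes of glyoxylate and hydroxyproline breakdown, and the 7 others were tested. Of these 7, 1 fell, Hao1, and 0 rose. Hao1, glycolate oxidase, makes glyoxylate from glycolate in the peroxisome. It was read at 67.6, 51.8, 64.4, 67.6 and 65.7 CPM in WD+alcohol 1 to 5 and at 91.8, 112, 97.5 and 116 CPM in control 1 to 4. All WD+alcohol values lay below all control values, and the log2 fold change was -0.71 ± 0.10 (SE; limma-trend adjusted p = 0.00166). Hao1 was called in all 21 alternatives. Agxt fell by 0.41 more than Hao1 on the log2 scale, a difference that did not pass the test (exact permutation p = 0.143, adjusted p = 0.153).

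Grhpr, glyoxylate reductase, which turns glyoxylate back into glycolate, was read at 134, 142, 162, 154 and 144 CPM with WD+alcohol and at 112, 122, 124 and 123 CPM in controls. It was singled out after its values were seen. All WD+alcohol values lay above all control values, but Grhpr was not called (log2 fold change 0.29 ± 0.07, SE; limma-trend adjusted p = 0.0656). It was called in 4 of the 21 alternatives, where the adjusted p ran from 0.0197 to 0.342. Agxt2, a mitochondrial aminotransferase that also takes glyoxylate, stood at 0.28 (95% interval 0.03 to 0.54) and was not called (limma-trend adjusted p = 0.337). The ratio of Agxt to a gene of this list was lower with WD+alcohol for 6 of the 7 genes at an exact permutation adjusted p under 0.05, Hao1 being the exception. These ratios all share Agxt and were chosen after its fall was seen. They restate that fall and are no further evidence of it. The plot of the genes of this list shows Agxt and Hao1 below, and Grhpr above, the control range in every WD+alcohol library.

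**Figure D3:**
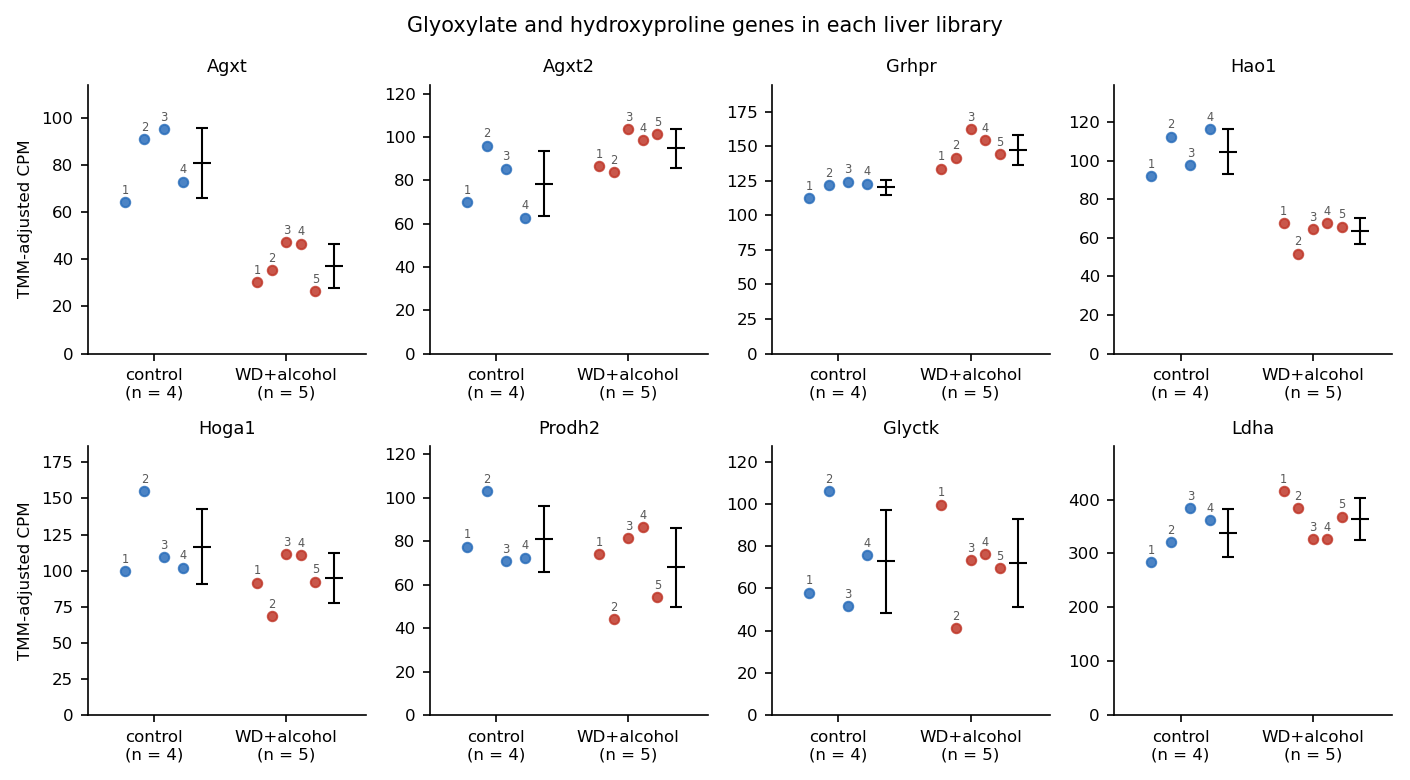
Levels (vertical axis, TMM-adjusted CPM, from 0) of the 8 genes of glyoxylate and hydroxyproline breakdown in the 4 control (blue) and 5 WD+alcohol (red) libraries, with mean and SD. Agxt and Hao1 are the genes called lower; Grhpr lies above the control range in each WD+alcohol library without being called.

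The serine and threonine dehydratase Sds was read at 194, 271, 147, 356 and 175 CPM in WD+alcohol 1 to 5. In controls it was read at 143, 158, 459 and 236 CPM. The highest value of all was control 3 and the lowest control 1, so the WD+alcohol values lay wholly within the control range. The means were 229 ± 85.0 CPM (SD, n = 5) and 249 ± 146 CPM (SD, n = 4), and the log2 fold change was -0.04 (95% interval -0.71 to 0.64). That interval allows a level from 0.612 to 1.56 times that of controls. The sign followed single libraries: without control 3 the log2 fold change was 0.31. In the annotation of build GRCm38 Sds overlaps Plbd2 and an antisense RNA on the other strand. The strand setting of the counting is unknown, so the level of Sds may be affected by these overlaps.

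Of the 9 other tested genes of serine, threonine and glycine breakdown, 1 fell and 0 rose. Gcat, which completes the breakdown of threonine to glycine in mitochondria, averaged 28.7 ± 3.54 against 41.0 ± 3.13 CPM, with a log2 fold change of -0.51 ± 0.10 (SE; limma-trend adjusted p = 0.0192). Its groups did not overlap. Among the analyses with 1 library left out, the call was lost without control 2 or control 3 (adjusted p 0.0596 and 0.0502).

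Tat, tyrosine aminotransferase, was read at 127, 389, 137, 236 and 138 CPM in WD+alcohol 1 to 5. In control 1 to 4 it was read at 195, 227, 720 and 501 CPM. WD+alcohol 1, 3 and 5 lay below every control, while WD+alcohol 2 and 4 lay among the controls. The means were 206 ± 112 CPM (SD, n = 5) and 411 ± 248 CPM (SD, n = 4), and the log2 fold change was -0.93 ± 0.39 (SE; 95% interval -1.77 to -0.09). Tat was not called (limma-trend p = 0.0317, adjusted p = 0.330; two-sided exact permutation p = 0.143), nor in any of 21 alternatives. Without control 3 its log2 fold change was -0.59. Its residual SD within groups, 0.79 on the log2 scale, was larger than that of 99.0% of tested genes, and the control mean was 1.998 times the WD+alcohol mean.

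Of the 3 later steps of tyrosine breakdown 0 were called. Hpd, the dioxygenase that makes homogentisate, was read at 496, 513, 783, 793 and 436 CPM with WD+alcohol and at 574, 644, 692 and 581 CPM in controls. WD+alcohol 3 and 4 lay above all controls and the other three below them, so the SD was 170 CPM against 56.0 CPM. The means, 604 and 623 CPM, gave a log2 fold change of -0.08 (95% interval -0.44 to 0.27; limma-trend adjusted p = 0.898). In the GRCm38 annotation Hpd overlaps Psmd9 on the other strand and the noncoding RNA gene Gm26745 on its own strand. Hgd overlaps the antisense gene Gm46559. The levels of Hpd and Hgd may be affected by these overlaps, and that of Hpd by Gm26745 whatever the strand setting.

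Hgd, homogentisate dioxygenase, ran from 152 to 217 CPM with WD+alcohol and from 166 to 227 CPM in controls. Fah, the hydrolase that ends the chain, ran from 180 to 297 CPM and from 202 to 303 CPM. Their log2 fold changes were -0.06 (95% interval -0.32 to 0.20) and -0.05 (95% interval -0.37 to 0.27). In fold terms the intervals reach from 0.7995 to 1.15 for Hgd and from 0.771 to 1.21 for Fah. The summed level of Hpd, Hgd and Fah was 1030 ± 240 CPM (SD, n = 5) with WD+alcohol and 1065 ± 119 CPM (SD, n = 4) in controls.

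Among the other 4 tested genes of phenylalanine and tyrosine breakdown 0 were called.

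Hal, histidine ammonia-lyase, was read at 111, 55.2, 131, 146 and 72.5 CPM in WD+alcohol 1 to 5 and at 134, 207, 148 and 122 CPM in control 1 to 4. WD+alcohol 1, 2 and 5 lay below every control, and WD+alcohol 3 and 4 lay among them. The means were 103 ± 38.5 CPM (SD, n = 5) and 153 ± 37.6 CPM (SD, n = 4), and the log2 fold change was -0.62 ± 0.25 (SE; 95% interval -1.15 to -0.08). Hal was not called (limma-trend p = 0.0266, adjusted p = 0.2995; two-sided exact permutation p = 0.0952), nor in any of 21 alternatives, where its adjusted p ran from 0.147 to 0.784.

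Uroc1, urocanate hydratase, the step after Hal, was read at 136, 103, 180, 163 and 136 CPM with WD+alcohol and at 141, 155, 143 and 147 CPM in controls. The controls differed from each other by at most 1.10-fold and the WD+alcohol libraries by 1.75-fold, with values on both sides of the controls. The means were 143 ± 29.4 and 146 ± 6.21 CPM, with a log2 fold change of -0.05 (95% interval -0.33 to 0.23). Neither of the other 2 histidine genes was called, and Ftcd, which passes the last carbon unit of histidine to folate, averaged 222 ± 39.5 against 283 ± 72.5 CPM (limma-trend adjusted p = 0.424).

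Tdo2, tryptophan dioxygenase, which commits tryptophan to the kynurenine route, was read at 927, 782, 959, 1083 and 761 CPM with WD+alcohol and at 797, 891, 1292 and 856 CPM in controls. The highest value was control 3 and the lowest WD+alcohol 5. The means were 902 ± 133 and 959 ± 225 CPM, and the log2 fold change was -0.07 (95% interval -0.38 to 0.23; limma-trend adjusted p = 0.898). Without control 3 it was 0.08.

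Of the 9 other tryptophan genes 1 fell and 0 rose. All 9 log2 fold changes were below 0, against 50.1% of all tested genes, but these genes share the scaling and cell makeup of their libraries. Acmsd, which diverts an intermediate of the kynurenine route from NAD synthesis to full oxidation, averaged 7.35 ± 4.07 against 18.7 ± 5.32 CPM. Its log2 fold change was -1.31 ± 0.29 (SE; limma-trend adjusted p = 0.0277), and WD+alcohol 4, at 14.2 CPM, overlapped control 4, at 12.9 CPM. The call was lost when any one of WD+alcohol 1, 2 or 5 or control 1, 2 or 3 was left out (adjusted p 0.0547 to 0.0874), with no filter (0.0542) and with robust limma-trend (0.0637).

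Counted once each, the 10 lists of amino acid breakdown held 70 genes besides the 9 enzymes, of which 69 were tested. Of these 69, 4 fell (Acmsd, Gcat, Hao1 and Acadsb) and 0 rose. That is 5.80% called, while of all tested genes 2.29% were called and 0.678% were called lower. The lists were chosen with earlier results of these data known, so these shares are a description only. Log2 fold changes were below 0 for 40 of the 69, against 50.1% of all tested genes, with a median of -0.04. Breakdown of branched-chain amino acids had 1 gene lower of 19, Acadsb, a dehydrogenase of the isoleucine route, at 60.6 ± 8.55 against 85.1 ± 10.9 CPM (limma-trend adjusted p = 0.0416). That call did not hold when one of WD+alcohol 1, 2, 5, control 1, 2 or 4 was dropped (adjusted p 0.0786 to 0.113) or with no filter (0.0664). No gene was called among those of lysine (5 tested), of proline and ornithine (5 tested) or of cysteine and taurine (5 tested). In these lists the most abundant were Aldh7a1 (178 ± 33.4 against 182 ± 16.4 CPM), Oat (503 ± 181 against 394 ± 130 CPM) and Cdo1 (974 ± 124 against 1115 ± 276 CPM). Log2 fold changes were below 0 for 8 of 19 branched-chain and 3 of 5 lysine genes. For proline and ornithine they were below 0 for 0 of 5, and for cysteine and taurine for 2 of 5. The plot of fold changes shows Agxt as the only filled red point.

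**Figure D4:**
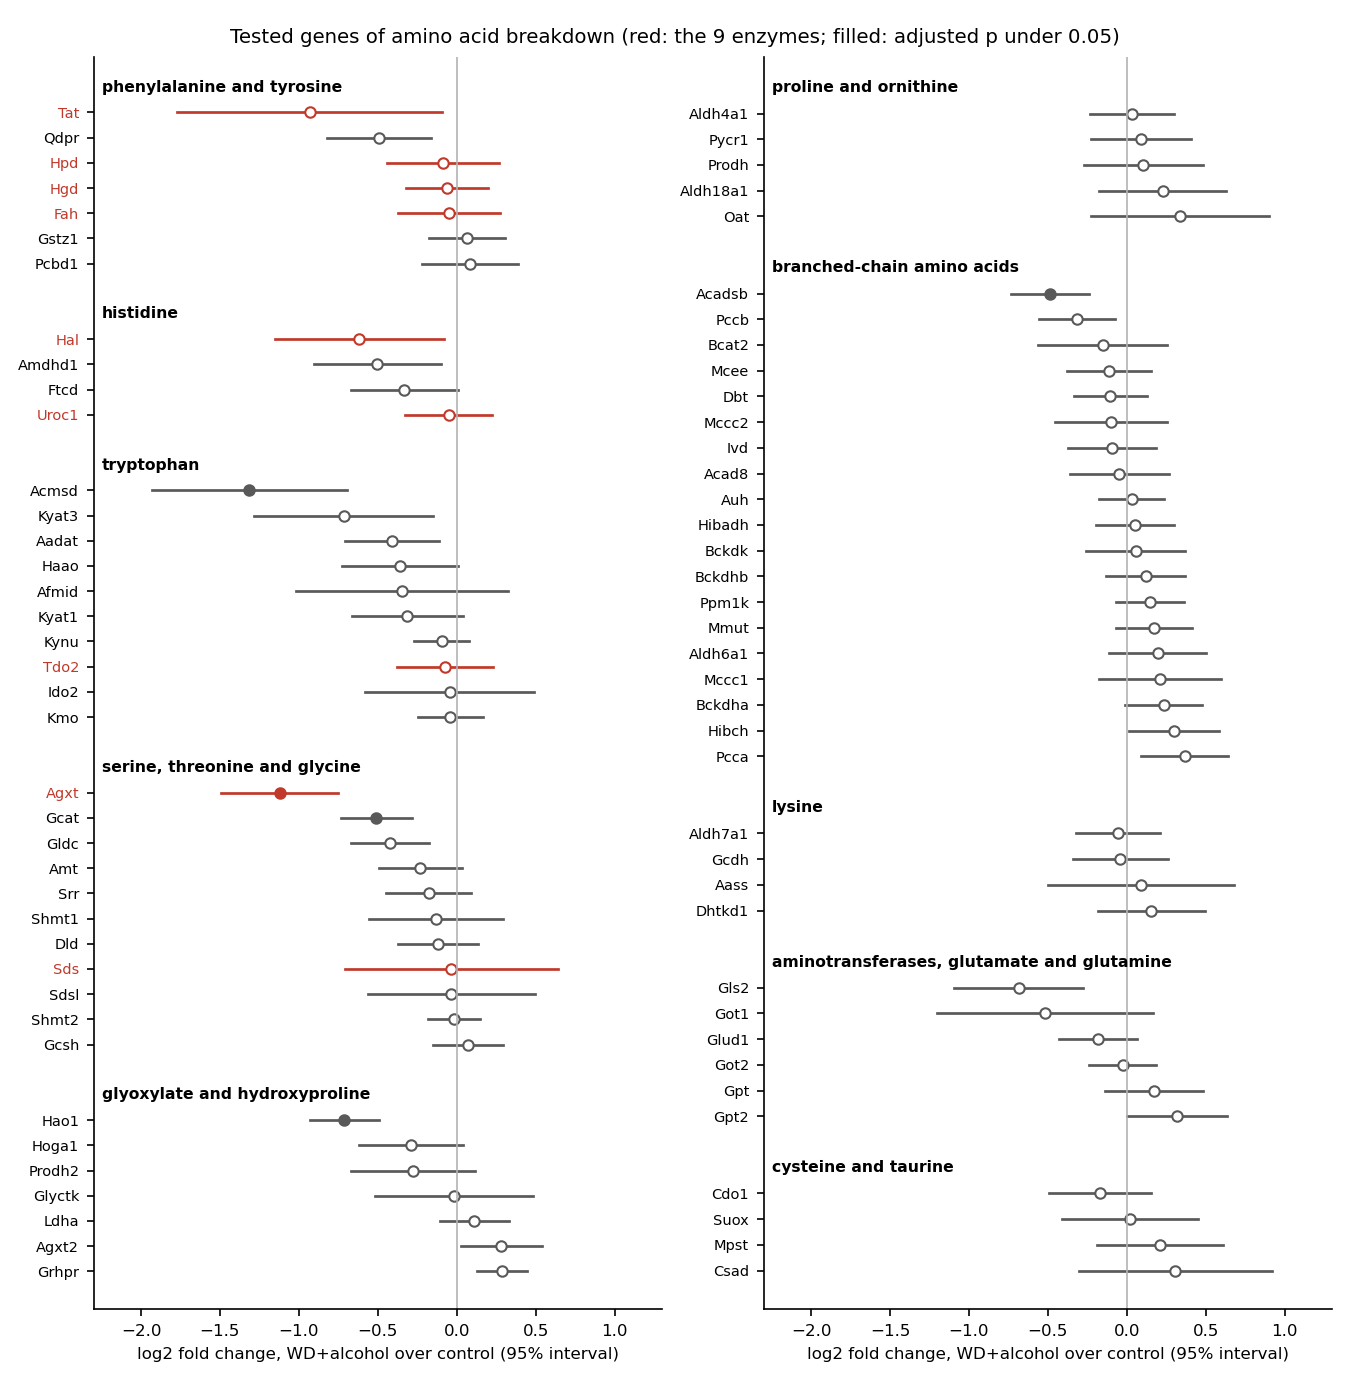
Log2 fold change of tested breakdown genes, all but 1 of them drawn (horizontal axis, WD+alcohol over control, point with 95% interval), grouped by the amino acid broken down; a gene on several lists is drawn once. Red marks the 9 enzymes and a filled point an adjusted p under 0.05: Agxt among the 9, and Acmsd, Gcat, Hao1 and Acadsb among the rest.

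Of the 6 other aminotransferase, glutamate and glutamine genes 0 were called. Got1, the cytosolic aspartate aminotransferase, averaged 221 ± 86.5 against 330 ± 185 CPM, and Gpt, alanine aminotransferase, 101 ± 19.3 against 89.5 ± 16.3 CPM. Glud1, glutamate dehydrogenase, averaged 422 ± 59.6 against 478 ± 69.3 CPM. Gls2, the liver glutaminase, averaged 106 ± 32.9 against 167 ± 31.6 CPM (limma-trend adjusted p = 0.0881), and was called lower with DESeq2 (adjusted p = 0.0352) and without WD+alcohol 4 (0.0138).

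All 9 hepatocyte amino acid transporters had a log2 fold change below 0 (median -0.31), against 50.1% of all tested genes, and 0 were called. These genes share the scaling and cell makeup of their libraries, so they are not 9 separate results. Slc38a4, a sodium-coupled transporter, averaged 338 ± 50.6 against 419 ± 54.4 CPM (limma-trend adjusted p = 0.244).

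Among 14 regulators of amino acid breakdown 0 were called. Nr3c1, the glucocorticoid receptor, averaged 177 ± 14.5 against 179 ± 7.05 CPM, with a log2 fold change of -0.02 (95% interval -0.18 to 0.14). Gcgr, the glucagon receptor, averaged 58.6 ± 12.6 against 65.3 ± 16.7 CPM, Klf15, a factor that switches on amino acid breakdown genes, 32.2 ± 7.26 against 37.7 ± 4.32 CPM, and Hnf4a 221 ± 44.7 against 282 ± 58.6 CPM. Of 8 glucocorticoid-responsive genes 0 were called. Their log2 fold changes ran from -0.23 to 3.50 with a median of 0.04, and 3 were below 0. Errfi1, the most abundant, had the lowest of these and averaged 245 ± 49.3 against 294 ± 95.5 CPM.

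The genes of gluconeogenesis, which uses the carbon that these enzymes release, moved both ways. Pck1, phosphoenolpyruvate carboxykinase, fell, and Pcx, pyruvate carboxylase, and Fbp1, fructose bisphosphatase, rose. That is 3 called of 5 tested, beside 2.29% of all tested genes, on a list chosen with earlier results of these data known. Of the 5, 3 had a log2 fold change below 0, and the median was -0.19. The lowest, -1.19, was that of a gene not called. Log2 fold changes were -1.002 ± 0.16 (SE) for Pck1 (limma-trend adjusted p = 0.00324), 0.56 ± 0.09 for Pcx (0.00306) and 0.42 ± 0.08 for Fbp1 (0.0114).

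Some of the enzymes varied together between mice of the same group. For this the mean of each group was taken off each gene's log2(CPM + 1), and all 36 pairs of enzymes were compared over the 9 libraries, with exact tests that permute libraries within groups. Pearson's r was above 0 for 30 of the 36 pairs, with a median of 0.64, and 6 pairs passed at an adjusted p under 0.05. By Spearman's rho 0 pairs passed (smallest adjusted p = 0.0938), with 11 at an unadjusted p under 0.05. All genes of a library share its scaling and its cell makeup, so a part of these relations may be common to many genes, and pairs of other genes were not compared. Tat had r below 0 with Hgd, Fah, Hal and Uroc1 (-0.18 to -0.42, exact p 0.266 to 0.645). Without WD+alcohol 2 and control 3 these r were -0.12, 0.23, 0.011 and 0.24. Sds had r of 0.28 with Hpd, 0.15 with Hgd, 0.037 with Fah, -0.072 with Hal, -0.20 with Uroc1 and 0.70 with Tdo2. Without WD+alcohol 4 and control 3 all of these were below 0 (-0.20 to -0.74). The signs thus changed with the libraries kept.

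The closest pair was Agxt and Hpd (r = 0.93, exact p = 6.94e-04, adjusted p = 0.0250; rho = 0.90, exact p = 0.00347, adjusted p = 0.0938). Without WD+alcohol 3 and 5, whose Agxt deviations from the group mean lay furthest from the median deviation, r was 0.87. Both genes were high in WD+alcohol 3 and 4 and low in WD+alcohol 1 and 5 within their group. Sds and Tat formed another pair (r = 0.87, exact p = 0.00660, adjusted p = 0.0396; rho = 0.83, exact p = 0.0243, adjusted p = 0.111), and without WD+alcohol 4 and control 3 their r was 0.92. Among the controls both were highest in control 3, where Sds stood 1.04 and Tat 1.02 above the control mean on the log2 scale, and both were lowest in control 1. The other pairs that passed were Fah with Hal (r = 0.91), Fah with Uroc1 (0.84), Hgd with Fah (0.84) and Hgd with Hal (0.82), each with exact adjusted p = 0.0396. Their rho was 0.88, 0.92, 0.77 and 0.70, and without the 2 libraries furthest out their r was 0.85, 0.91, 0.86 and 0.64. In WD+alcohol 2 the enzymes parted, with Tat 1.06 above and Hal 0.80 below their group means, as the map of deviations shows.

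**Figure D5:**
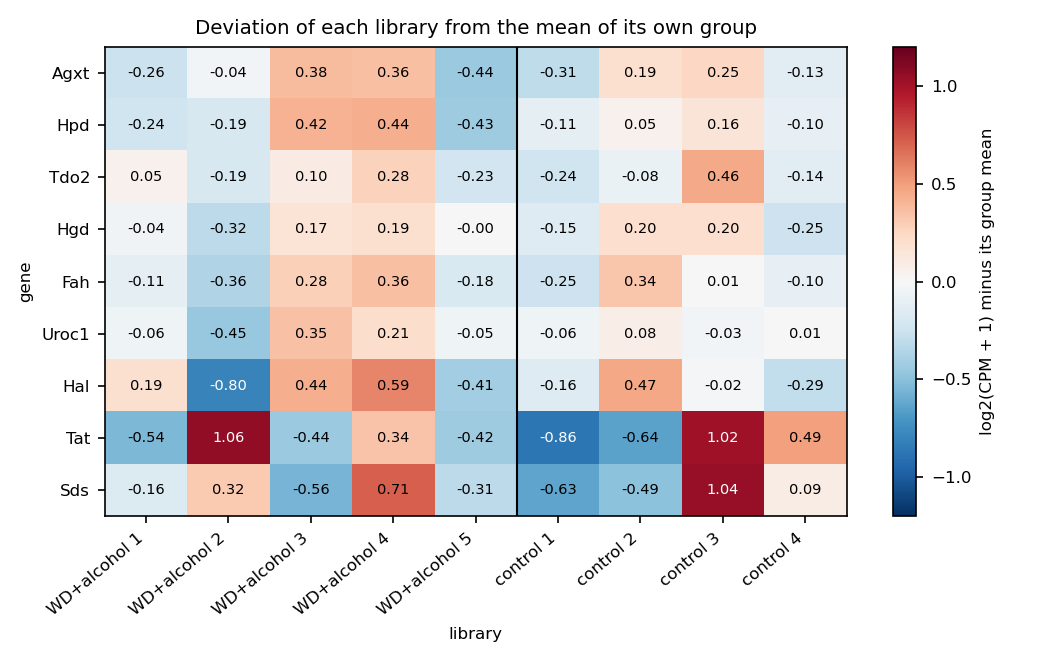
Deviation of each library (columns) from the mean of its own group for each enzyme (rows), in log2(CPM + 1) units, red above and blue below. Tat and Sds are high together in control 3 and low together in control 1; WD+alcohol 4 is above its group mean for all 9 enzymes.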

How the data were processed

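Liver RNA of 9 mice was made into Collibri 3′ mRNA libraries, per the labels' protocols. The submitters' processing notes name Trim Galore 0.6.0, cutadapt 1.18, STAR, build GRCm39, HTSeq 0.11.0, edgeR 3.28.1 and R 3.6.3. Strand setting, handling of multimapping reads, STAR version and annotation release: not given in the sources used here. The deposited values are a signal, TMM-adjusted CPM by the authors, for 55253 symbols. All positive values (100%) were whole multiples of the smallest of their column within a relative tolerance of 1e-06, so whole reads were recovered. One read was worth 0.152 to 0.2695 CPM. No 2 libraries agreed within sampling noise (36 pairs, chi-square per degree of freedom at least 6.00). Each library was taken as 1 mouse, since the series' design gives 5 and 4 mice; if that were wrong, p-values would measure only technical spread.

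Titles gave the groups and library names the columns. Log2(CPM + 1) values were tested with limma 3.58.1's trend method under R 4.3.3 in a two-sided test, with Benjamini-Hochberg adjustment over the 14759 genes whose mean reached 1 CPM; 338 were called. The test was also run on simulated counts drawn for each gene separately, which does not cover variation shared between genes. The alternatives were pseudocounts of 0.25 and 5, no filter and one at 5 CPM, 3 other scalings, array weights, a robust fit, a block for replicate numbers, omission of each library in turn, and edgeR 4.0.16 and DESeq2 1.42.0 on recovered reads; 315 and 545 genes were called by these last. Ratios of Agxt to other genes and the 6 promoter words were added after seeing the data. Exact permutation tests used Python 3.11.15.

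The 9 enzymes and the 23 gene lists were chosen with earlier results of these data known. Besides the 9, the text names for each list its called genes (3 at most, by p) or, lacking any, its most abundant gene, and Got1, Gpt, Gls2, Nr3c1, Gcgr, Klf15 and Pck1; 1 gene of that rule is not reported here; marker lists are given as counts and ranges, and the 5 genes most like the enzymes by a rule given with them. Alb, Col1a1, Apoa1, Hpx, Agxt2 and Grhpr were added after their values were seen. From the marker lists, Glul, Cyp1a2, Cyp2c29, Dcn and Fcgr2b were also named after their calls were seen. Of 50-base words in the transcripts of the 9 enzymes (GENCODE M21), 0 were shared with another gene, except 0.466% of those of Hal.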

Additional observations from a re-analysis of the deposited data

Results flagged for a closer look

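Of 72 combinations of a named gene and a group, 2 held a library far from the others of its group, where chance gives about 1 in 20. Neither was in one of the 9 enzymes. Hao1 was 51.8 CPM in WD+alcohol 2, below the 64.4 to 67.6 CPM of the other WD+alcohol libraries. Glud1 was 524 CPM in WD+alcohol 5, above the 377 to 412 CPM of the others.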

How the results depend on the processing

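Agxt was the 1 called enzyme in all 21 alternatives, and 29 of the 36 named genes kept their side of the threshold in each of them; the others were Acmsd, Gcat, Acadsb, Fbp1, Pcx, Gls2 and Grhpr. Called genes numbered 338 in the analysis reported, 545 with DESeq2 on recovered reads, and 201 to 387 when 1 library was left out, the lowest without WD+alcohol 5 and the highest without WD+alcohol 4. Rescaled to one total, the log2 fold changes of Sds, Fah, Uroc1, Aldh7a1 and Nr3c1 were 0.020, 0.0037, 0.0028, 0.0012 and 0.038; with quantile normalization that of Nr3c1 was 0.0097; with array weights those of Hgd and Fah were 0.0082 and 0.018. Leaving out 1 library gave -0.25 to 0.31 for Sds, -1.22 to -0.59 for Tat, -0.19 to 0.022 for Hpd, -0.14 to 0.017 for Hgd, -0.14 to 0.061 for Fah, -0.14 to 0.061 for Uroc1, -0.15 to 0.079 for Tdo2, -0.13 to 0.039 for Aldh7a1, -0.063 to 0.013 for Nr3c1, -0.25 to 0.011 for Gcgr and -0.039 to 0.10 for Rab3gap1. The cause was not tested.

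Libraries of the 2 groups share replicate numbers, but the deviations of same-numbered libraries correlated at -0.31 to -0.0075 and 0 of 4 controls matched best with their own number, so the numbers were not taken as a pairing. With the replicate block 112 genes were called, Agxt among them (adjusted p = 0.0107), while Acmsd (adjusted p = 0.199), Gcat (0.174), Acadsb (0.342), Fbp1 (0.175) and Pcx (0.0504) were not, and the log2 fold changes of Sds and Hpd were 0.042 and 0.022. WD+alcohol 5 has no partner in that fit and does not bear on its estimates.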

Other observations

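Zonation markers, which mark hepatocytes near the portal vein or the central vein, are given here because Hal, Sds and Uroc1 are on the portal list. Of 15 portal genes 1 fell (Pck1) and 0 rose. Their log2 fold changes were below 0 for 12, against 50.1% of all tested genes, and the median was -0.48. Their summed level was 2979 to 4804 CPM with WD+alcohol and 4664 to 6360 CPM in controls. Of 13 central genes 1 rose (Glul) and 2 fell (Cyp1a2 and Cyp2c29). Their log2 fold changes were below 0 for 7, with a median of -0.11. Of 9 stellate cell markers 1 rose (Dcn), of 7 sinusoidal endothelial markers 1 rose (Fcgr2b), and of 4 tested cholangiocyte, 4 lymphocyte and 3 neutrophil markers 0 were called.

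The genes whose deviations from their group mean were most like the mean scaled deviations of the 9 enzymes, among 11021 other genes whose mean reached 5 CPM, were Tspan31 (r = 0.98), Rab3gap1 (0.98), Gpat4 (0.96), Jak2 (0.95) and Asl (0.94), over 9 libraries. These are the highest of 11021 values over few libraries and are a description only. Their log2 fold changes were -0.08, 0.02, 0.24, 0.12 and -0.57, and none was called. Asl is argininosuccinate lyase of the urea cycle.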
